A study of Mus musculus with 6 samples.

Results

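Mitosis and spindle genes were examined after knockdown of Ncoa3 in E14, a line of mouse embryonic stem cells cultured feeder-free on gelatin with serum and LIF. The group was a list of 44 genes named for their roles in cell division. Their members on the array were the probes whose platform gene symbol was on the list, kept where 3 or more of 6 arrays had a detection p below 0.01. Of the 44 genes, 42 had a probe named for them, 91 probes in all. The filter kept 63 of these probes, which measured 37 genes of the 9569 named genes measured on the array. No probe was named for Ccnb1 or Mki67 in the annotation used here. Ccnb2, Nek2, Bub1, Cenpe and Kif20a had named probes, none of them detected on any array, and these 5 genes have no value below. All 37 measured genes were detected on the 3 knockdown arrays, and 34 of them on all 6. The others were Ttk, which passed the filter through the knockdown arrays alone, and Ube2c and Pttg1, each undetected on 1 scrambled array.

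The knockdown group was E14 cells transfected with an shRNA plasmid against Ncoa3, a coactivator of nuclear receptors, and the control group was E14 cells transfected with a scrambled shRNA. Both were taken at day 4, with 3 samples each that the labels call biological replicates, and total RNA was hybridised to Illumina bead arrays. The labels are at odds over the target, since the treatment protocol speaks of an Esrrb plasmid where the titles and the design text have Ncoa3. The single Ncoa3 probe was at background on all 6 arrays, with a raw intensity of 89.8 ± 1.92 in knockdown and 93.0 ± 6.90 in scrambled samples (SD, n = 3 each), so the array gave no check of the targeted gene. Esrrb itself changed by -0.62 on the log2 scale (adjusted p = 2.55e-04, limma). The sources used here do not give the share of cells that took up a plasmid.

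The arrays detected 16262, 16825 and 17105 probes in knockdown replicates 1 to 3, against 15720 to 16311 in scrambled samples. Correlations over kept probes were 0.994 to 0.996 within a group and 0.970 to 0.972 between groups. The stem cell markers Pou5f1, Sox2, Nanog, Zfp42 and Esrrb were detected on all 6 arrays, and all 5 were lower after knockdown. None of 6 fibroblast markers was measured, and 4 of them were detected on no array. Of 8 trophectoderm markers 5 were measured. Krt8 and Krt18 were detected on all 6 arrays and rose, whereas Cdx2, Gata3 and Krt19 were detected on the 3 knockdown arrays and on no scrambled array, and so passed the filter through the knockdown arrays alone. The summed normalized intensity of the 5 was 1454 to 1622 in knockdown samples and 370.0 to 406.0 in scrambled samples, the second range resting in part on probes at background. Eomes and Hand1 were detected on no array. Of 6 endoderm markers 3 were measured and all 3 rose, with sums of 358 to 409 in knockdown and 145 to 160 in scrambled samples, while Gata4, Sox17 and Afp were detected on no array. The part of these other cell states in the changes of mitosis genes was not tested.

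Mitosis begins when cyclin B and Cdk1 become active, driven by Cdc25 phosphatases and by Polo and Aurora kinases. The duplicated chromosomes are then compacted by condensin, attached through centromeres and kinetochores to a spindle of microtubules that kinesins sort and bundle, and held by a checkpoint until every attachment is made. The anaphase-promoting complex, with Cdc20 and later with the Fzr1 protein, marks securin and cyclins for destruction, so that separase can cut the cohesin that joins sister chromatids. Many of these genes are transcribed late in the cell cycle, through a promoter element called the cell cycle genes homology region (CHR), which the MuvB complex reads together with B-Myb (Mybl2) or FoxM1, and through CCAAT boxes bound by NF-Y. Embryonic stem cells divide fast and have a short G1 phase.

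Promoter sequences are given because these genes are known for shared elements near their starts. RefSeq promoter windows of build GRCm38.p6, from 250 bases before to 50 bases after each gene start, were found for 37 of the 44 genes, 41 windows in all, because Prc1, Bub3 and Cenpk had several. They were searched on both strands for the CHR letters TTTGAA or TTTAAA and for the letters CCAAT, and no match of one overlapped a match of the other in these windows. The 150 bases before the start are printed for 4 genes that fell after knockdown (Espl1, Ccnf, Top2a and Plk1) and for 2 that did not pass the test (Cdc20 and Cdk1), on the strand of the gene, 5′ to 3′, with both kinds of match in capitals.
Espl1 (chr15:102296143-102296292, plus strand): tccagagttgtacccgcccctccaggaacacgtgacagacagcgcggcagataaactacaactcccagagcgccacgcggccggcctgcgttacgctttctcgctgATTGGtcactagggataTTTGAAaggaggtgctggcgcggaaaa
Ccnf (chr17:24251410-24251559, minus strand): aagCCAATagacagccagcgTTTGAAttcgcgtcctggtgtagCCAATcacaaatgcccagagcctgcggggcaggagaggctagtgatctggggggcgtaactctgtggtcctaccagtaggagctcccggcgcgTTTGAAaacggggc
Top2a (chr11:99024190-99024339, minus strand): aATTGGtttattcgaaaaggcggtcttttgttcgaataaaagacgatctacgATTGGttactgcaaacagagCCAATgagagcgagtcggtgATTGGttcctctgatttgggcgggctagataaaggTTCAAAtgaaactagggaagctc
Plk1 (chr7:122159285-122159434, plus strand): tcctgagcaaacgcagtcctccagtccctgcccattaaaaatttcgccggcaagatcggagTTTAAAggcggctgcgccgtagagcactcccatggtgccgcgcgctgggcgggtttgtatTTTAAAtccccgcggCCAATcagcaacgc
Cdc20 (chr4:118437344-118437493, minus strand): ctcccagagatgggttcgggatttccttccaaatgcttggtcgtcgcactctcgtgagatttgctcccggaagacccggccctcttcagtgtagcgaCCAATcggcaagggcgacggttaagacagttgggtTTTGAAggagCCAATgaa
Cdk1 (chr10:69352913-69353062, minus strand): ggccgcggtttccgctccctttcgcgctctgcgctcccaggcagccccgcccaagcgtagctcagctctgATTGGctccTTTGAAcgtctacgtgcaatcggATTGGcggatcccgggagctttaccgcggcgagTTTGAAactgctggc
Each of the 6 held at least 1 CHR match and at least 1 CCAAT match, and Top2a held 4 CCAAT matches in this stretch. The CHR letters in the printed part of Plk1 were both of the TTTAAA form.

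CHR letters were present in 29 of the 41 windows of mitosis genes, 70.7%, against 27.6% of all 32851 windows in the table and 18.6% of the 9931 windows of genes measured on these arrays. Within 50 bases of the start on either side, the shares were 56.1% of mitosis windows, 8.28% of all windows and 4.83% of windows of measured genes. CCAAT letters were present in 34 windows, 82.9%, against 37.4% of all windows and 37.8% of windows of measured genes. Both kinds stood together in 63.4% of mitosis windows and in 10.7% of all windows. The 121 windows of a wider list of other mitosis genes had CHR letters in 41.3%, CCAAT letters in 51.2% and both in 24.8%. The 54 windows of genes of the G1/S transition and DNA replication had them in 25.9%, 55.6% and 14.8%. CHR letters were in 10 of 13 windows of the genes that fell after knockdown and in 15 of 22 windows of the measured genes that did not pass the test. CCAAT letters were in 11 of the 13 windows and in 17 of the 22. Nusap1, which fell, had neither kind in its window. The letters are a description of the windows and do not show that a factor was bound.

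**Figure D1:**
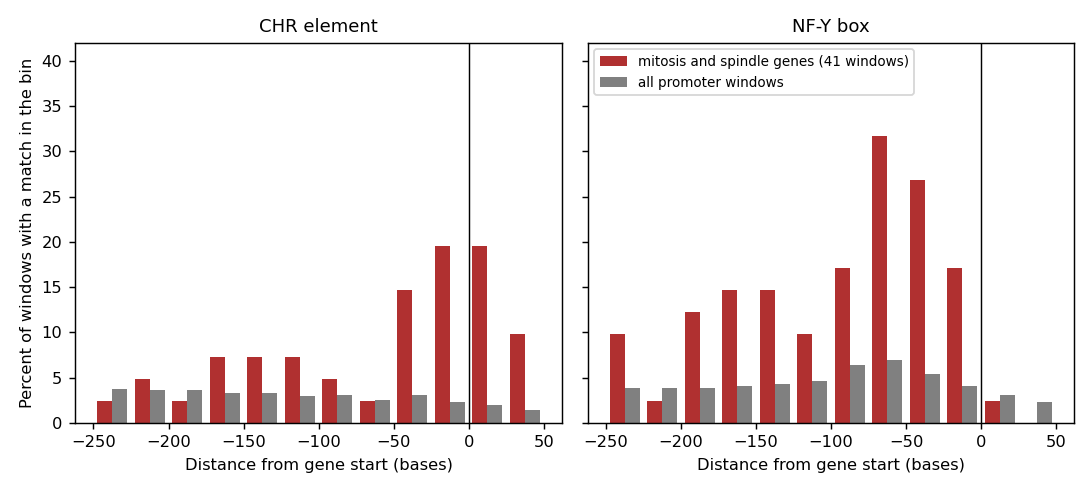
Percent of promoter windows with a match that begins in each bin of 25 bases, plotted against distance from the gene start, for the 41 windows of mitosis and spindle genes (red) and all 32851 windows (grey). The left panel shows CHR letters and the right panel the CCAAT letters bound by NF-Y. CHR matches of the mitosis windows are most frequent from 50 bases before to 25 bases after the start, and CCAAT matches from 75 to 25 bases before it.

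Knockdown arrays were set against scrambled arrays to find genes whose level differed at day 4. Of 37 measured mitosis and spindle genes, 14 fell and 0 rose by limma's test with Benjamini-Hochberg adjustment at 0.05 over all 11782 features, where a feature is the brightest kept probe of a gene or a single unnamed probe. In all, 37.8% of the mitosis genes were called lower, where 24.3% of all features were. Counting both directions, 46.9% of all features were called, so the share of mitosis genes that changed in either direction was below that of the array as a whole. Higher calls made up 22.5% of all features and 0 of the 37 mitosis genes. On its brightest kept probe, no mitosis gene changed by 1.5-fold, whereas 16.1% of all features were called and changed at least that much. A dimmer kept probe of Kif23 did pass 1.5-fold, with a log2 change of 0.76. In bulk samples, fewer cells in mitosis and less RNA per cell cannot be told apart.

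Values below are normalized log2 signals, changes are knockdown minus scrambled on the log2 scale with their standard error, and adjusted p-values are from limma. The median change of the 37 genes was -0.19, against -0.03 for all features. Measured changes were below 0 for 30 of the 37 genes, and for 25 of them all 3 knockdown arrays lay under all 3 scrambled arrays, which was the case for 31% of all features. Ttk alone had all 3 knockdown arrays above all scrambled arrays, and counting both directions 57.8% of all features did not overlap. Taken array by array, the median distance of the 37 genes from their scrambled mean was -0.16, -0.19 and -0.15 on the knockdown arrays and 0.01, -0.01 and 0.01 on the scrambled arrays. On those knockdown arrays 31, 30 and 31 of the 37 genes were under their scrambled mean, against 17, 25 and 16 on scrambled replicates 1, 2 and 3. The count at the threshold depended on the processing. It was 7 lower and 1 higher after median scaling over all probes, and 19 lower and 0 higher with median scaling over kept probes. In the authors' normalized values 12 were lower and 2 higher. The share of all features called lower moved too, to 13.5%, 27.8% and 20.3% in those settings. It was 24.3% with the background correction and quantile normalization used for the values above. Median scaling over all probes raised the median change of all features by 0.12. Relative to the median of all features, the mitosis genes stood at -0.16 with background correction and quantile normalization. The value was also -0.16 with median scaling over all probes. It was -0.11 with quantile normalization but no background correction, and -0.10 in the authors' values.

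**Figure D2:**
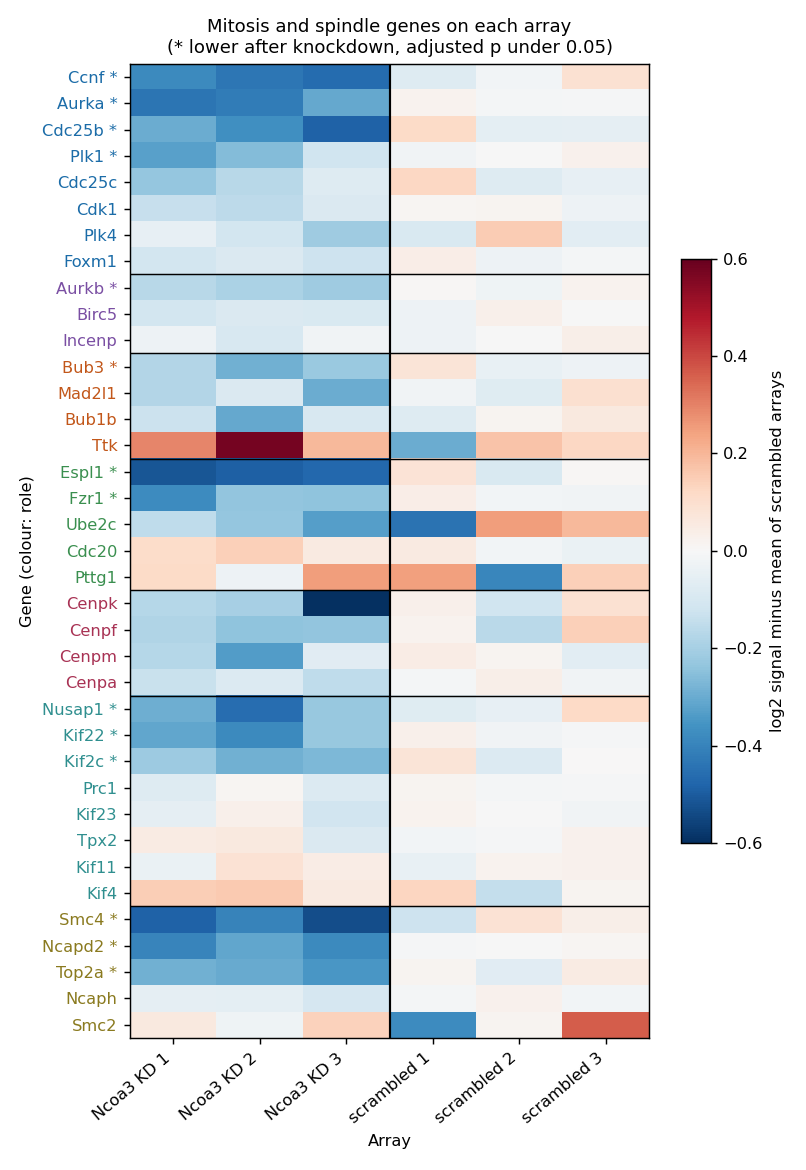
Heat map of the 37 measured genes (rows, coloured and grouped by role) on the 3 knockdown arrays (left) and 3 scrambled arrays (right). Colour is the log2 signal minus the gene's mean on the scrambled arrays, with the scale ending at 0.6 in either direction, and an asterisk marks the 14 genes that fell. The blue rows of Espl1, Ccnf and Smc4 span all 3 knockdown arrays, and Ttk is red on all 3.

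Among the regulators of mitotic entry, 4 of 8 measured genes fell, where 24.3% of all features did. Ccnf, the cyclin F subunit of an SCF ubiquitin ligase, read 9.14, 9.08 and 9.06 on the knockdown arrays, against 9.44, 9.51 and 9.61 on the scrambled arrays. The groups did not overlap, and the change was -0.43 ± 0.07 (SE, adjusted p = 0.00161). Aurka, the Aurora A kinase of centrosomes and spindle poles, read 10.93, 10.95 and 11.06 after knockdown, against 11.39, 11.36 and 11.36 in scrambled samples. Its change was -0.39 ± 0.06 (SE, adjusted p = 0.00175), again without overlap. Cdc25b, a phosphatase that activates Cdk1, read 6.53, 6.46 and 6.34 after knockdown and 6.94, 6.77 and 6.77 in scrambled samples. All 3 knockdown arrays lay below the lowest scrambled array, with a change of -0.38 ± 0.08 (SE, adjusted p = 0.00572), and the call was lost after median scaling over all probes (-0.21, adjusted p = 0.0854). Plk1, the Polo kinase of mitotic entry and spindle assembly, read 10.95, 11.02 and 11.16 after knockdown and 11.26, 11.27 and 11.30 in scrambled samples. The groups stood close, and its change of -0.24 ± 0.07 (SE, adjusted p = 0.0277) passed the test with all 6 arrays but not without scrambled replicate 1, 2 or 3 or knockdown replicate 1 or 2, where it ran from -0.25 to -0.19. The call was also lost with medians scaled over all probes (-0.17, adjusted p = 0.139) and without the probe filter (adjusted p = 0.0619).

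The other entry regulators had smaller measured changes that did not pass the test. Cdk1, the kinase partner of cyclin B, read 11.29, 11.27 and 11.34 after knockdown and 11.44, 11.45 and 11.40 in scrambled samples. The groups did not overlap, yet the change of -0.13 ± 0.06 (SE) had an adjusted p of 0.102, and its 95% interval began at -0.26. Foxm1, the transcription factor of late cell cycle genes, had a change of -0.11 with an interval from -0.24 to 0.02. Cdc25c, the relative of Cdc25b, read 7.78, 7.85 and 7.94 after knockdown and 8.14, 7.94 and 7.97 in scrambled samples, a change of -0.16 (adjusted p = 0.133), and its 2 kept probes differed in sign. Plk4, the kinase of centriole duplication, had -0.12, with groups that overlapped.

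In the chromosomal passenger complex, which corrects attachments and guides cytokinesis, 1 of 3 genes fell, beside 24.3% of all features. Aurkb, its Aurora B kinase, read 9.85, 9.82 and 9.80 after knockdown, against 10.02, 9.99 and 10.03 in scrambled samples. The groups were tight and apart, and the change was -0.19 ± 0.05 (SE, adjusted p = 0.0251). The call was lost without scrambled replicate 1 or 3 or any 1 of the 3 knockdown replicates, where the change ran from -0.20 to -0.18. It was also lost with cyclic loess (-0.13), in the authors' values (-0.074), with medians scaled over all probes (-0.058) and without the probe filter. The scaffold Incenp had a change of -0.05, not past the test. Birc5, the survivin subunit, read 11.82, 11.84 and 11.84 after knockdown and 11.90, 11.96 and 11.93 in scrambled samples. Its groups did not overlap, and the change was -0.10 (adjusted p = 0.185). Its 3 kept probes differed in sign, from -0.10 to 0.12, and none was called.

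In the spindle checkpoint, 1 of 4 measured genes fell, a share of 25%, close to the 24.3% of all features that fell. Bub3, which brings Bub1 and BubR1 to kinetochores, read 8.99, 8.88 and 8.95 after knockdown, against 9.25, 9.12 and 9.14 in scrambled samples. The change was -0.23 ± 0.06 (SE, adjusted p = 0.0225), without overlap. It lost its call with scrambled replicate 1 or knockdown replicate 2 or 3 left out, where it ran from -0.23 to -0.19. The call was also lost in the authors' values (-0.11), with medians scaled over all probes (-0.093) and without the probe filter. Bub1b, which encodes BubR1, had a change of -0.18 (adjusted p = 0.099). Mad2l1, which encodes an inhibitor of Cdc20, read 11.11, 11.20 and 10.99 after knockdown and 11.27, 11.22 and 11.38 in scrambled samples. The groups stood just apart, the change was -0.19 (adjusted p = 0.091), and its dimmer probe had 0.03. Ttk, the Mps1 kinase that starts checkpoint signalling, was the gene with the highest measured change, at 5.26, 5.55 and 5.17 after knockdown and 4.67, 5.14 and 5.10 in scrambled samples. The groups did not overlap, but the probe was not above background on any scrambled array, and the change had an adjusted p of 0.0884. The mean knockdown level was 1.12-fold above a background level, without allowance for the spread between arrays, and the 95% interval of the change began at 0.005. That background level is the mean over scrambled arrays of the higher of the probe's own value and the lowest detected signal on the array.

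Of the 5 genes of anaphase and mitotic exit, 2 fell, beside 24.3% of all features. Espl1, the separase that cuts cohesin, had the largest fall of all 37 genes. It read 8.79, 8.81 and 8.83 on the knockdown arrays, against 9.38, 9.20 and 9.31 on the scrambled arrays. The change was -0.49 ± 0.07 (SE, adjusted p = 7.73e-04), or 1.40-fold lower, and the 3 knockdown values lay within a few hundredths of each other. Fzr1, the Cdh1 activator of the anaphase-promoting complex after mitosis, read 12.22, 12.36 and 12.36 after knockdown and 12.64, 12.58 and 12.57 in scrambled samples. Its change was -0.29 ± 0.06 (SE, adjusted p = 0.00892), and its 3 kept probes all fell, by 0.27 to 0.48. The call on its brightest probe was lost with medians scaled over all probes (adjusted p = 0.0571). Cdc20, the mitotic activator of the same complex, had the opposite sign at 12.28, 12.31 and 12.22 after knockdown and 12.22, 12.15 and 12.13 in scrambled samples. The groups overlapped at their edge, the change was 0.10 with a 95% interval from -0.04 to 0.24, and all 4 kept probes had changes between 0.05 and 0.14 that did not pass the test. In the authors' normalized values Cdc20 was called higher. The securin gene Pttg1 (0.11) and Ube2c (-0.24), an E2 enzyme of the complex, were dim probes detected on 2 of 3 scrambled arrays, with intervals from -0.28 to 0.50 and from -0.65 to 0.18. Without scrambled replicate 1, Ube2c had a change of -0.46 and was called (adjusted p = 0.00435).

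None of the 4 measured centromere genes passed the test, where 24.3% of all features were called lower. Each had a measured change below 0 and groups that did not overlap. Of all features, 31% were lower without overlap, and 57.8% did not overlap in either direction. Cenpa, the histone H3 variant that marks centromeres, read 13.32, 13.37 and 13.30 after knockdown, against 13.44, 13.48 and 13.43 in scrambled samples. Its change on this probe was -0.12 ± 0.06 (SE, adjusted p = 0.113), whereas a dimmer probe had -0.45 and was called when every kept probe was tested (adjusted p = 0.0179). Cenpk, a subunit of the inner kinetochore, had the largest measured change at -0.36, with an adjusted p of 0.0796 and an interval from -0.70 to -0.02. Knockdown replicate 3 was lowest for Cenpk, at 6.58 beside 7.11 and 7.08. Cenpf, a kinetochore protein of late G2, had -0.22 and was called without scrambled replicate 2 (-0.30, adjusted p = 0.0170). Cenpm, a further inner kinetochore subunit, had -0.19.

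Kinesins and spindle proteins were divided, with 3 of 8 measured genes lower, beside 24.3% of all features. Kif22, a chromokinesin that pushes chromosome arms, read 11.11, 11.04 and 11.19 after knockdown, against 11.45, 11.40 and 11.41 in scrambled samples. The change was -0.31 ± 0.06 (SE, adjusted p = 0.00598), without overlap. Nusap1, which bundles spindle microtubules, read 10.22, 10.06 and 10.29 after knockdown and 10.44, 10.47 and 10.64 in scrambled samples. Its change was -0.32 ± 0.09 (SE, adjusted p = 0.0176), and the call was lost without scrambled replicate 3 or knockdown replicate 2, at -0.26 in both cases. A dimmer kept probe of Nusap1 had -0.07 and was not called. Kif2c, the microtubule depolymerase MCAK of centromeres, read 10.76, 10.69 and 10.71 after knockdown and 11.06, 10.90 and 10.98 in scrambled samples. It changed by -0.26 ± 0.07 (SE, adjusted p = 0.0141), also without overlap. After median scaling over all probes the calls of Nusap1 (-0.21) and Kif2c (-0.18) were lost.

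The other kinesins and spindle proteins did not pass the test. Tpx2, which activates Aurora A on the spindle, had a change of 0.01 with a 95% interval from -0.14 to 0.16. Kif11, the motor that separates spindle poles, had 0.03 (interval -0.11 to 0.18), and Prc1, the bundler of midzone microtubules, had -0.05 (interval -0.18 to 0.09). Kif4, a motor of chromosome arms and the midzone, had 0.12 (interval -0.07 to 0.31), and its 3 kept probes all had changes above 0. In the authors' values Kif4 was called higher, at 0.20 (adjusted p = 0.0148).

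Kif23, a motor of cytokinesis that forms centralspindlin, differed between its probes. The brightest probe read 9.86, 9.95 and 9.80 after knockdown and 9.94, 9.91 and 9.89 in scrambled samples, a change of -0.05 with overlapping groups. Another probe had raw intensities of 708, 709 and 694 after knockdown, against 432, 401 and 389 in scrambled samples. Those groups lay far apart, and the change of 0.76 ± 0.08 (SE) was called with every kept probe tested (adjusted p = 3.31e-04), the only kept probe of the 63 to rise. The dimmest kept probe had 0.26 (adjusted p = 0.0622). The sources used here do not say which transcripts each probe reads.

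**Figure D3:**
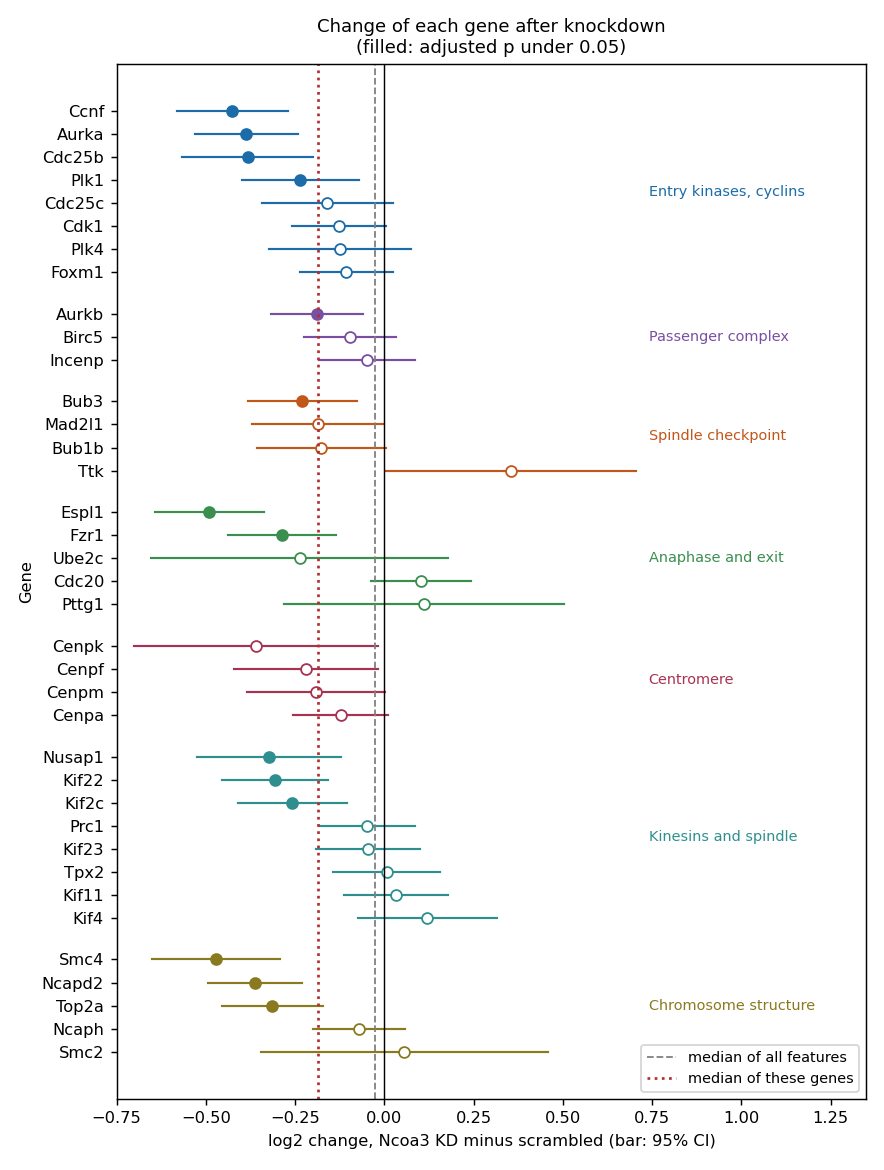
Log2 change of each of the 37 measured genes, knockdown minus scrambled, with its 95% interval, grouped by role. Filled points are the 14 genes that fell, the dashed line is the median of all features (-0.03) and the dotted line the median of these genes (-0.19). The points lie mostly to the left of 0, and 7 lie to its right, led by Ttk.

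Of the 5 measured chromosome structure genes, 3 fell, beside 24.3% of all features. Smc4, an ATPase subunit of condensin, read 6.93, 7.02 and 6.89 after knockdown, against 7.29, 7.51 and 7.45 in scrambled samples. The change was -0.47 ± 0.08 (SE, adjusted p = 0.00191), without overlap, but its 2 dimmer probes had -0.09 and 0.12, neither called. Ncapd2, a regulatory subunit of condensin I, read 10.28, 10.37 and 10.29 after knockdown and 10.67, 10.67 and 10.68 in scrambled samples. Its change was -0.36 ± 0.06 (SE, adjusted p = 0.00164), and 2 of its 3 kept probes were called lower. Top2a, the topoisomerase that untangles chromatids, read 10.82, 10.81 and 10.76 after knockdown and 11.13, 11.04 and 11.16 in scrambled samples. It changed by -0.31 ± 0.06 (SE, adjusted p = 0.00440), and both dimmer probes had changes below 0 that were not called. Ncaph, another subunit of condensin I, had -0.07 with an interval from -0.20 to 0.06. Smc2, the partner of Smc4, read from 6.95 to 7.69 on the scrambled arrays, so that its change of 0.06 had an interval from -0.34 to 0.46.

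Several kept probes were available for 16 of the 37 genes. Their changes had the same sign for 11 genes and differed in sign for Birc5, Cdc25c, Kif23, Mad2l1 and Smc4, and no gene had probes called in opposite directions. With every kept probe tested, 18 of the 63 probes were lower and 1 was higher, where 22.7% of all kept probes were lower.

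**Figure D4:**
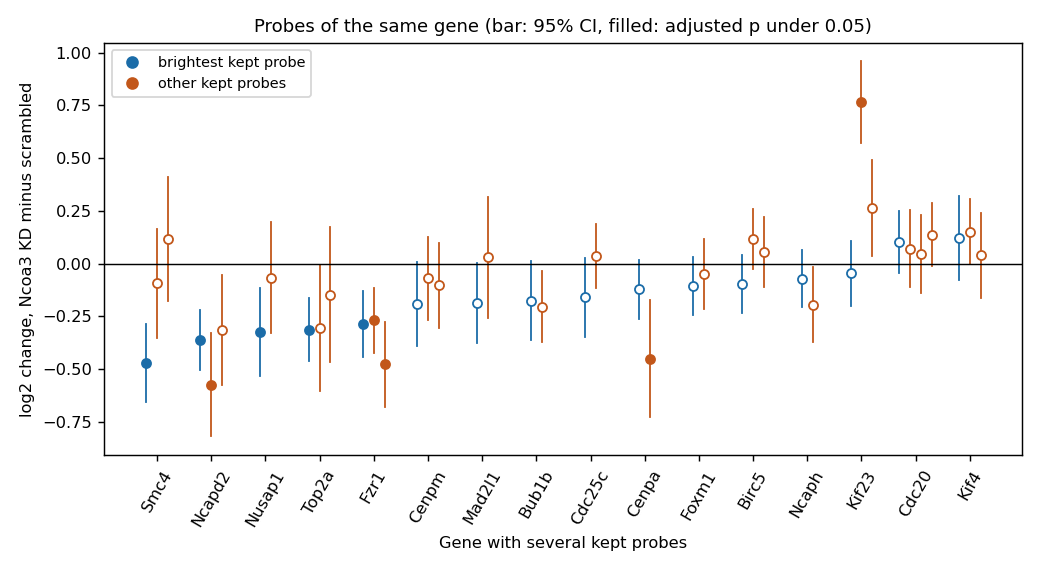
Log2 change with 95% interval of every kept probe of the 16 genes with more than 1, with genes ordered by the change of their brightest probe (blue) and the other probes in orange. Filled points were called with every kept probe tested. The 3 probes of Fzr1 lie together below 0, and those of Kif23 spread from -0.05 to 0.76.

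A wider list of 130 further mitosis genes held 98 that were measured, of which 26 fell and 14 rose, beside 24.3% of all features lower and 22.5% higher. Its median change was -0.09. After median scaling over all probes 9 fell and 21 rose, where 1590 of the 11782 features fell and 3552 rose. In the authors' values 16 fell and 27 rose, where 2386 features fell and 3545 rose. The balance of directions thus moved with the processing both in the wider list and over all features. Entry regulators outside the 44 genes had 7 of 13 lower and 0 higher, led by the kinases Melk (-0.60) and Pbk (-0.48), with Bora, the cofactor of Aurora A that activates Plk1, at -0.36 and Haspin, the histone H3 kinase of centromeres, at -0.32. Kinetochore genes had 8 of 27 lower, with Cenps at -0.60, Kntc1 of the checkpoint RZZ complex at -0.48, Spc24 of the Ndc80 complex at -0.44 and Cenpi at -0.33. The same list had 3 higher, Cenpt at 0.61, Zwint at 0.40 and Dsn1 at 0.26. The second kept probes of Spc24 and Cenpi had -0.06 and -0.08, neither called. The calls of Bora, Haspin and Cenpi were lost after median scaling over all probes, and that of Haspin also when knockdown replicate 1 was left out. Dsn1 was not called with scrambled replicate 2 or 3 or any knockdown replicate left out. Over all alternatives Haspin ran from -0.37 to -0.18 and Dsn1 from 0.16 to 0.44.

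Beside the counts in this paragraph, 22.5% of all features were higher and 24.3% lower. Subunits of the anaphase-promoting complex had 4 of 11 higher and 2 lower, with Cdc23 at 0.73 ± 0.07 (SE, adjusted p = 1.17e-04) and Anapc15, Anapc13 and Anapc16 at 0.29, 0.27 and 0.27. The call of Anapc15 was lost with scrambled replicate 2 or 3 or knockdown replicate 1 or 2 left out, and its change ran from 0.23 to 0.45 over the alternatives. Anapc13 lost its call with medians scaled over kept probes (0.18). The 2 that fell were Anapc7 at -0.21 and Anapc5 at -0.19. Anapc7 lost its call with any array but knockdown replicate 3 left out and ran from -0.25 to -0.08. Anapc5 lost it with any array but scrambled replicate 2 left out and ran from -0.30 to -0.14. Over the 18 alternatives Anapc7 kept its call in 6 and Anapc5 in 10. Among 32 spindle and cytokinesis genes 6 rose and 6 fell. Anln, the anillin of the contractile ring, rose by 0.60, Kifc1, a minus-end kinesin, by 0.60 and Ckap2 by 0.57. A second kept probe of Anln had 0.19 and was not called. Cit, the citron kinase, also counted among the 6, passed the probe filter through the knockdown arrays alone and was not above background on any scrambled array. Its change in the authors' values was 0.21, against 0.62 with background correction and quantile normalization. Kifc1 read 11.34, 11.35 and 11.39 after knockdown, against 10.75, 10.77 and 10.75 in scrambled samples, far outside the spread within either group. Those that fell were led by Haus8 (-0.43), Dlgap5 (-0.37), Haus5 (-0.35) and Haus6 (-0.29), of which 3 are subunits of augmin, the complex that branches spindle microtubules. The 2 kept probes of Haus6 were called in opposite directions, at -0.29 and 0.25, and its call was lost with scrambled replicate 2 or knockdown replicate 1 or 2 left out, in a range of -0.34 to -0.14. The call of Haus5 was lost with medians scaled over all probes. Second kept probes of Haus5 and Dlgap5 had -0.04 and -0.17, neither called. Cohesin and further condensin genes had 3 of 15 lower, with the cohesin acetyltransferase Esco2 at -0.75, Ncapg2 at -0.30 and Ncapd3 at -0.25, and 1 higher, the cohesin regulator Pds5b at 0.35. Ncapg2 ran from -0.38 to -0.14 and lost its call with scrambled replicate 1 or 2 or knockdown replicate 1 or 3 left out, and both condensin genes lost it with medians scaled over all probes.

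Of 12 measured regulators of late cell cycle transcription, 3 fell and 1 rose. That was 25% lower and 8.33% higher, beside 24.3% and 22.5% of all features. Mybl2, the B-Myb partner of MuvB, read 11.06, 10.95 and 11.08 after knockdown, against 12.07, 12.01 and 11.95 in scrambled samples. It fell 1.97-fold (adjusted p = 3.22e-05), and of its 3 kept probes 2 were called lower. E2f4, the repressor E2F of quiescent cells, changed by -0.44 and Rbbp4, a MuvB and chromatin subunit, by -0.41. Nfyb, a subunit of the CCAAT-binding factor, changed by 0.25, in a range of 0.21 to 0.37 over the alternatives, and lost its call when scrambled replicate 1 or 2 or knockdown replicate 2 or 3 was left out.

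Genes of the G1/S transition and DNA replication are given for comparison. Of 48 measured, 34 fell and 0 rose, or 70.8% lower, where 24.3% of all features fell and 22.5% rose. Their median was -0.35, where the mitosis genes had -0.19. E2f2, an activator E2F, changed by -0.78, Cdc45 of the replicative helicase by -0.75, thymidine kinase Tk1 by -0.74 and Chaf1b of chromatin assembly factor by -0.73, each beyond the largest fall among the 37 mitosis genes, while Esco2 of the wider mitosis list was at -0.75. The difference between the lists was not tested. Of 10 measured CDK inhibitors, D-type cyclins and their kinases, 4 rose and 2 fell, or 40% and 20%, beside 22.5% and 24.3% of all features. Cdkn1a, the p21 inhibitor of CDKs, rose 1.72-fold (adjusted p = 8.19e-05), with all 3 kept probes higher, and Cdkn1c (0.77) and Cdkn2a (0.61) rose as well. Ccnd2 rose 3.22-fold, while Ccnd3 changed by -0.42 and Ccnd1 by -0.17, in a range of -0.27 to -0.11 for Ccnd1, which lost its call with scrambled replicate 2 or 3 or any knockdown replicate left out. Over the 18 alternatives Ccnd1 kept its call in 8. Of the 3 kept probes of Ccnd1, 1 was called lower, and the highest change among them was 0.03.

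**Figure D5:**
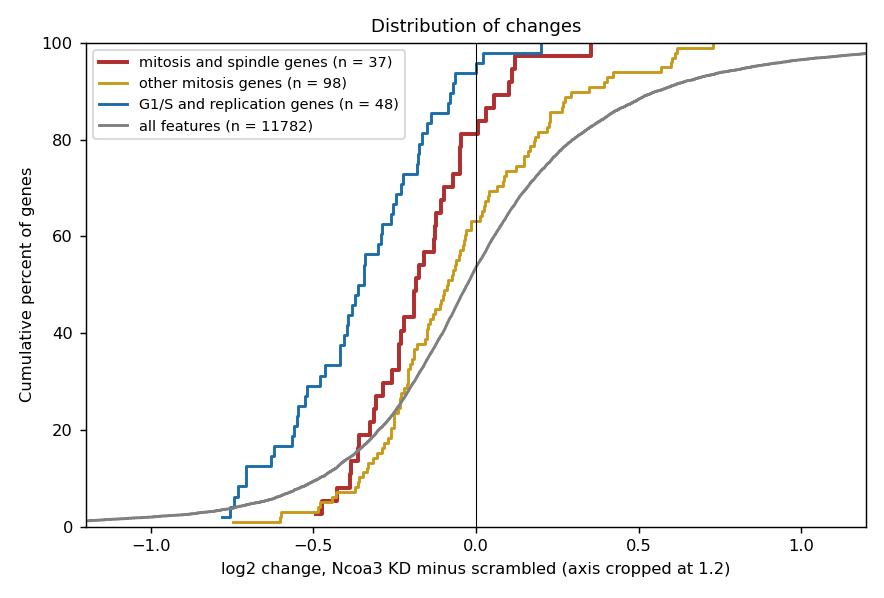
Cumulative percent of genes against log2 change, knockdown minus scrambled, for the 37 mitosis and spindle genes (red), 98 other mitosis genes (yellow), 48 G1/S and replication genes (blue) and all 11782 features (grey). The red curve lies between the blue and the grey over most of its range and is steep. On their brightest kept probes, 30 of its 37 genes are below 0 and none is at 1.5-fold.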

How the data were processed

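E14 cells were profiled on 6 Illumina arrays, 3 per group. The deposited table gave raw probe intensity, non-normalized per the file headers, with a detection p-value beside each value per the file headers. The authors' normalized intensity, in a second deposited table, kept the probe order of each array, and its method, the scanner software and the slides are not given in the sources used here. Its column medians were 89.4, 88.4 and 87.6 for knockdown and 92.7, 93.5 and 92.4 for scrambled replicates 1 to 3.

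Signals of 45281 probes were background-corrected and quantile normalized with neqc (limma 3.58.1, R 4.3.3, offset 16). Probes with a detection p under 0.01 on at least 3 arrays were kept, 16674 in all, and the brightest kept probe stood for each gene. Groups were compared with lmFit and eBayes, 2-sided, without covariates, over 11782 features. The functions were tested on simulated arrays. P-values set the difference between groups against the spread of samples within groups, with variances moderated over all features. The number of arrays limits precision. Members and lists were chosen with earlier results of these data known. Every member is accounted for. Values per array are given for genes past the test or with kept probes of differing sign, and up to 4 called genes per direction are named from each other list. Cdk1, Cdc20, Ttk, Cenpa, Cenpk, Smc2 and Kifc1 were given values per array after those were seen. RefSeq promoter windows (GRCm38.p6) were matched by symbol. Alternatives covered background, normalization, probe filter, variance prior, array weights, replicate block and left-out arrays.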

Additional observations from a re-analysis of the deposited data

How the results depend on the processing

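The fall of mitosis genes kept its direction in each of 18 alternatives, while its size and count moved. Of the 14 genes that fell, Ccnf, Aurka, Espl1, Kif22, Top2a, Ncapd2 and Smc4 were called in all 18, and the other 7 were lost in at least 1. Of the 23 genes not called, 12 were called in at least 1 alternative. Median scaling over all probes gave 7 lower and 1 higher (Ttk), with a median change of -0.068, and 9 lower among the wider list. Of all features, 13.5% were called lower in that setting. The authors' normalized values gave 2 higher (Cdc20 and Kif4), a median of -0.083, or -0.10 relative to all features, and 16 lower and 27 higher in the wider list. In these values 20.3% of all features were called lower. The median of the mitosis genes was -0.13 with normexp at offset 50 and -0.13 without background correction, and both gave -0.11 relative to all features. It was -0.14 with cyclic loess, -0.22 with median scaling over kept probes and -0.17 without the probe filter. The count of falls was 17 with normexp and 18 without background correction. It was 19 with median scaling over kept probes and 20 with a trended and robust variance prior. In those settings 26.7%, 27.0%, 27.8% and 27.4% of all features were lower. Cyclic loess gave 13 falls, beside 20.9% of all features. Without the probe filter 11 of 42 genes fell, beside 8.27%. With 1 array left out the median of the mitosis genes ran from -0.19 to -0.15, and relative to all features from -0.16 to -0.12. The count of falls then ran from 10 (without knockdown replicate 2) to 14, where 20.0% to 22.1% of all features were lower. Deviations of arrays with the same replicate number had correlations from -0.01 to 0.02, against -0.05 to 0.05 for unlike numbers. No shared effect of the replicate number was visible, but these values cannot tell whether same-numbered samples were handled together. A fit with replicate as a block gave 13 lower and 0 higher, and 23 lower and 13 higher in the wider list. Of the 11782 features, 2622 (22.3%) were lower and 2511 higher in that fit. Among the 14 genes that fell, that block lost the call of Aurkb alone, and among the other named genes those of Dsn1, Anapc7, Anapc5 and Ccnd1. Slide as a block was not run, because no slide or scan date is given in the sources used here. Ttk, Ube2c and Pttg1, not detected on every scrambled array, had standard errors of 0.15 to 0.18, against a median of 0.07 over the 37 genes. Cenpk and Smc2, detected on all 6 arrays, had standard errors of 0.15 and 0.17, and the cause was not tested.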
